A study of Mus musculus with 6 samples.

Results

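A run of intronic miRNA hairpins lies in Clcn5, the X-linked gene of the endosomal chloride/proton exchanger that proximal tubule cells use in protein reabsorption. The 7 mature miRNAs described here (mmu-miR-532-5p, mmu-miR-532-3p, mmu-miR-188-5p, mmu-miR-362-5p, mmu-miR-362-3p, mmu-miR-501-3p and mmu-miR-500-3p, written without the prefix from here on) were chosen by name, with earlier results of these data known. All 7 were found among the 1034 distinct mature miRNAs of the deposited table. They were measured in nephron progenitor cells of CD1 mice, the cells of the outer kidney cortex that give rise to nephrons. The 2 groups were embryos at E14.5 and newborns at P0, with 3 samples each and no allele or treatment labelled in either. Each sample pooled up to 24 kidneys of 1 litter, from which cells were released by a short digestion and captured on beads with an antibody to Itga8, a surface integrin of these progenitors. Such a capture enriches cells and does not guarantee a pure population, and no miRNA on the lists used here defines nephron progenitors, so the label was not checked directly.

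A miRNA hairpin is cut from a longer transcript and then diced into a duplex whose arms are called 5p and 3p. One arm is usually kept by an Argonaute protein and pairs with messenger RNAs mainly through its seed, bases 2 to 8, while the other is usually degraded. Hairpins within an intron are commonly transcribed with the host gene, but each mature arm can still accumulate to its own level, because processing and decay act on hairpins and arms separately.

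The 5 hairpins with values in the table lie on the minus strand of chromosome X (GRCm38) within 10815 bases. In the direction of transcription the order is Mir532 (chrX:7248402-7248497), Mir188 (chrX:7247989-7248056), Mir362 (chrX:7241982-7242046), Mir501 (chrX:7241243-7241351) and Mir500 (chrX:7237683-7237774). Mir532 and Mir188 are 345 bases apart, Mir362 and Mir501 are 630 bases apart, and gaps of 5942 and 3468 bases separate Mir188 from Mir362 and Mir501 from Mir500. All 5 sit in 1 intron of 103648 bases that 3 of the 5 annotated Clcn5 transcripts share (GENCODE annotation). The other 2 transcripts start downstream of all 5 hairpins and do not contain them.

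The mature sequences of 6 members are shown because their seeds group them in a way that map position does not. They are from RefSeq (GRCm38.p6), 5′ to 3′, with the seed in capitals. The member miR-532-5p is named only.
miR-532-3p: cCUCCCACacccaaggcuugca
miR-188-5p: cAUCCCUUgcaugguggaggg
miR-362-5p: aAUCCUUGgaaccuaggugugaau
miR-362-3p: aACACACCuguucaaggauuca
miR-501-3p: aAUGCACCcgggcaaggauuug
miR-500-3p: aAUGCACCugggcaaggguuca

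Of these 6, miR-501-3p and miR-500-3p share a seed and the others do not share theirs with another member. Counted from the 5′ end, miR-500-3p and miR-501-3p differ at 4 of 22 positions, U9C, G18A, C21U and A22G with the base of miR-500-3p first. Whether reads that fit both were divided between them is not given in the sources used here. The non-member arms of the same hairpins include miR-500-5p, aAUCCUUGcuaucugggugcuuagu, which has the seed of miR-362-5p, and miR-501-5p, aAUCCUUUgucccugggugaaa, which does not. The hairpins of the seed pair are shown to place these arms, with both mature arms in capitals.
Mir501: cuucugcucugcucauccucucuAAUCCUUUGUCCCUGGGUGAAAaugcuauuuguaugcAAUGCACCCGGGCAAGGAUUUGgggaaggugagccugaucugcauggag
Mir500: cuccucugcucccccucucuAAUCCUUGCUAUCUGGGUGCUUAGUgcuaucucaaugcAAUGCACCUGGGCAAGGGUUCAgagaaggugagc

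Values are TPM (length-normalised read abundance), that is reads divided by length and scaled so that every library has the same sum. Reads recovered from the TPM values ranged from 2649506 to 34934526 per library, with both of the shallow libraries at E14.5. P0 replicate 1 stood apart from the other P0 libraries. Across the 670 miRNAs tested, which are not independent replicates, its log2(TPM + 1) values had a mean Pearson correlation of 0.948 with the E14.5 libraries and of 0.908 with P0 replicates 2 and 3. By this correlation its stage label is in doubt, while its summed marker levels were below those of every E14.5 library. They were 8158 TPM against 26608 or more for endothelial and 65655 against 123806 or more for stromal and smooth muscle markers. For tubule epithelium they were 2551 against 4888 or more, for erythroid 127 against 242 or more. The leukocyte sums were near, at 629 against 632 or more. Whether the label is right was not tested. Every P0 mean includes this library. Counts of members, of chromosome X and of the marker lists called are given with and without it. The median of all tested miRNAs fell by 1.20 on the log2 scale from E14.5 to P0 in TPM, and was −0.17 after median-of-ratios scaling. The excess of each member over that median is given with the stage comparison.

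The cluster as a whole was a small part of the miRNA pool at both stages, and its summed level did not separate them. In replicate order, the 7 members summed to 408, 734 and 475 TPM at E14.5 and to 923, 419 and 399.5 TPM at P0. The highest library was P0 replicate 1 and the lowest was P0 replicate 3, so the P0 range enclosed the E14.5 range. By reads, the members made up 0.0407% to 0.0734% of an E14.5 library and 0.0399% to 0.0921% of a P0 library. The deepest E14.5 library had 17384 member reads and the shallowest 1079.

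Within the sum, miR-532-5p was the main product at both stages. It took 66.9% of the member reads in E14.5 replicate 1 (95% Wilson interval 64.1 to 69.7), 68.9% in replicate 2 (68.3 to 69.6) and 62.5% in replicate 3 (60.6 to 64.4). In P0 replicate 1 its share was 82.6% (82.2 to 83.1), and in P0 replicates 2 and 3 it was 53.2% (52.2 to 54.3) and 56.4% (55.3 to 57.4). The share was thus highest and lowest within P0. miR-501-3p took 6.12%, 7.73% and 7.67% of member reads in the E14.5 libraries, 1.75% in P0 replicate 1, and 33.4% and 32.4% in P0 replicates 2 and 3. These intervals cover counting error only.

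**Figure D1:**
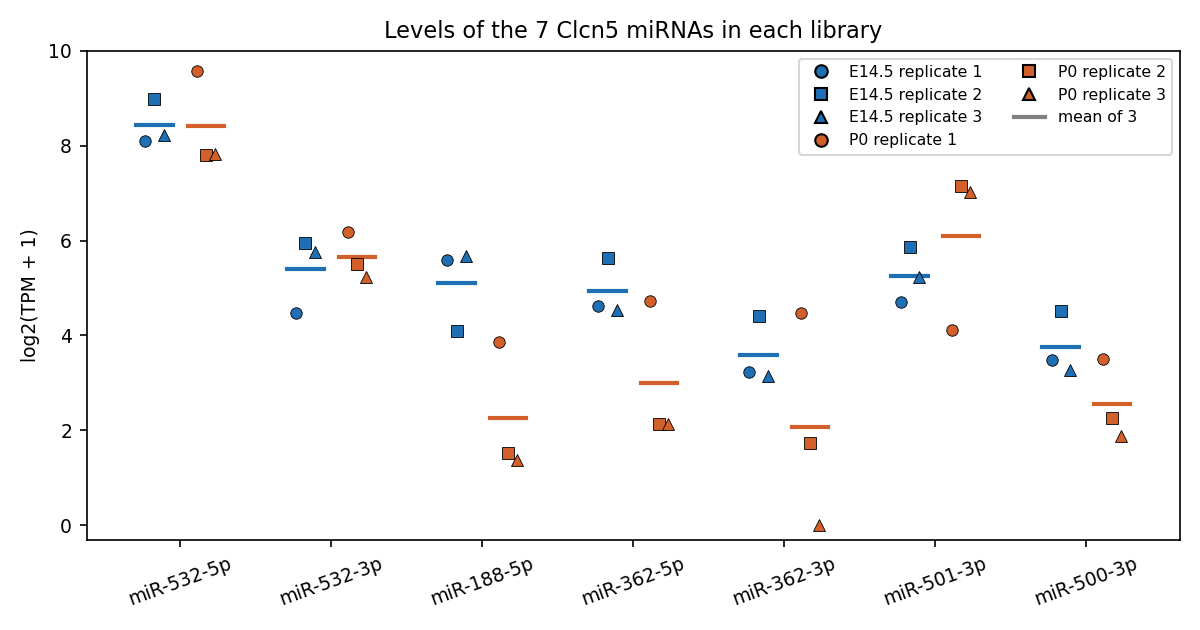
Levels of the 7 members as log2(TPM + 1) on the vertical axis, with a point per library (colour for stage, symbol for replicate number) and a line at the mean of the 3 libraries of a stage. miR-532-5p is the highest in every library, miR-188-5p is the 1 member whose stages do not overlap in TPM, and miR-501-3p is high in P0 replicates 2 and 3 and low in P0 replicate 1.

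In the stage comparison across all miRNAs, 1 of the 7 members passed the threshold in TPM, and it fell. That was miR-188-5p. Over all 670 tested miRNAs, limma called 34.2% in either direction, 32.8% as lower and 1.34% as higher at P0. The members' median log2 change was −1.21, beside −1.20 for all tested miRNAs, with 5 members lower and 2 higher in mean log2 level. Relative to the median of all, the log2 change in TPM was 1.16 for miR-532-5p, 1.44 for miR-532-3p and 2.03 for miR-501-3p. It was −1.66 for miR-188-5p, −0.74 for miR-362-5p, −0.32 for miR-362-3p and −0.01 for miR-500-3p. After scaling the excess of miR-500-3p was 0.07, so its side of the median depends on the scaling, while the other 6 kept theirs. Scaling shifts all miRNAs of a library alike, so an excess over their median could hardly move. That the 6 kept their side is therefore no check of it. The members were chosen with earlier results of these data known, and their count lies near or below that background. Stage values did not overlap for 1 of 7 members, which was lower at P0, beside 49.6% of all tested miRNAs in either direction and 46.4% that were lower. After median-of-ratios scaling limma called 0 of 7 members, where the rate over all miRNAs was 10.9% (5.22% lower and 5.67% higher). An unadjusted p under 0.05 was found for 4 of the 7, beside 34.0% of all. With limma-voom on the recovered reads 1 member was called, beside 27.0% of all.

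Mir532 lies first in the transcript, and neither of its arms passed the test with all 6 libraries, in TPM or after scaling. miR-532-5p (chrX:7248456-7248477) had 273, 509 and 297 TPM at E14.5 and 765, 223 and 225 TPM at P0, in the order of the replicates. P0 replicate 1 was above and the other P0 libraries were below all E14.5 libraries, so no P0 value lay within the E14.5 range and the similar means rest on P0 replicate 1. The log2 change was −0.03 (SE 0.61, limma adjusted p = 0.973), with a 95% interval of −1.36 to 1.30. That interval includes more than a halving and more than a doubling. After median-of-ratios scaling the direction was positive, 1.25 (SE 0.50, limma adjusted p = 0.110), and the scaled values no longer overlapped, with 173 to 346 at E14.5 and 397 to 872 at P0. Such separation after scaling was seen for 35.4% of all tested miRNAs.

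miR-532-3p (chrX:7248419-7248440), the less abundant arm, had 21.2, 61.1 and 53.3 TPM at E14.5 and 71.9, 44.5 and 36.8 TPM at P0. The stages overlapped, and E14.5 replicate 1, at 56 reads, was the lowest of the 6. Its log2 change was 0.25 (SE 0.62, limma adjusted p = 0.760). The scaled change was 1.50 (SE 0.54, limma adjusted p = 0.0861). The scaled values of this arm did not overlap either, at 14.0 to 41.6 for E14.5 and 64.9 to 84.2 for P0. Without P0 replicate 1 the scaled change of miR-532-3p passed the threshold, at 1.40 (limma adjusted p = 0.0444), where 48.8% of all miRNAs did and 21.6% were higher. In TPM the direction of this arm turned without P0 replicate 1, to −0.02, and without E14.5 replicate 1, to −0.21.

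The next hairpin, Mir188, lies 345 bases downstream of Mir532 and showed another pattern. miR-188-5p (chrX:7248031-7248051) had 46.9, 16.1 and 49.7 TPM at E14.5 and 13.5, 1.89 and 1.61 TPM at P0. All P0 libraries were below all E14.5 libraries, by a narrow margin between E14.5 replicate 2 and P0 replicate 1. After median-of-ratios scaling these libraries crossed, at 10.9 in E14.5 replicate 2 and 15.4 in P0 replicate 1, so the stages overlapped. It fell by 2.86 on the log2 scale (SE 0.76, limma adjusted p = 0.0143), a 7.24-fold lower fitted level on the log2(TPM + 1) scale. After median-of-ratios scaling the change was −1.77 (SE 0.71, limma adjusted p = 0.113), so the call was lost while the direction was kept. In TPM the adjusted p was 0.000273 without P0 replicate 1, 0.0646 without E14.5 replicate 1 and 0.0794 without E14.5 replicate 3.

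miR-188-3p, the other arm of that hairpin and not a member, had 14.3, 1.60 and 8.63 TPM at E14.5 and 3.35, 0 and 0 TPM at P0. A count of 0 there allows up to 0.142 and 0.147 TPM, at 3 reads. Its log2 change in TPM was −2.15 (SE 0.77, limma adjusted p = 0.0479). The scaled change was −1.59 (limma adjusted p = 0.181). Both arms of Mir188 were lowest at E14.5 in replicate 2. In the same library the summed level of each of the 5 marker lists used here was the lowest of E14.5: endothelial, stromal and smooth muscle, erythroid, leukocyte and tubule epithelium. For tubule epithelium the sums were 24708, 4888 and 15529 TPM at E14.5 and 2551, 764 and 1187 TPM at P0 in replicate order. The part of these cells in the miR-188 values was not tested.

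The Mir362 arms, miR-362-5p and miR-362-3p, were lower in P0 replicates 2 and 3 and not in P0 replicate 1. miR-362-5p (chrX:7242019-7242042) had 23.5, 48.9 and 22.3 TPM at E14.5 and 25.5, 3.41 and 3.40 TPM at P0. P0 replicate 1 lay within the E14.5 range and the other P0 libraries far below it. The log2 change was −1.93 (SE 0.76, limma adjusted p = 0.0626), above the threshold. It was −0.78 after scaling (SE 0.70, limma adjusted p = 0.450).

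miR-362-3p (chrX:7241984-7242005) had 8.33, 20.2 and 7.83 TPM at E14.5 and 21.2, 2.34 and 0 TPM at P0. The highest value was that of P0 replicate 1, and the count of 0 in P0 replicate 3 allows up to 0.140 TPM, at 3 reads. Its log2 change was −1.52 (SE 0.93, limma adjusted p = 0.204), with a 95% interval of −3.54 to 0.50. The scaled change was −0.65 (limma adjusted p = 0.682). With a pseudocount of 0.1 the log2 change was −2.68 and with limma-voom −3.22, neither of them called. Without P0 replicate 3 it shrank to −0.48 in TPM (limma adjusted p = 0.676). Outside the cluster 1 miRNA of the table carries the seed of miR-362-3p, miR-329-3p of the imprinted region on chromosome 12. miR-329-3p had 7.95, 29.2 and 27.4 TPM at E14.5 and 6.21, 4.19 and 3.26 TPM at P0, and fell by 1.86 on the log2 scale (SE 0.64, limma adjusted p = 0.0411). After scaling its change was −0.73 (limma adjusted p = 0.420).

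The members with a common seed, miR-501-3p and miR-500-3p, parted most in P0 replicates 2 and 3. miR-501-3p (chrX:7241270-7241291) had 25.0, 57.0 and 36.4 TPM at E14.5 and 16.2, 140.1 and 129.6 TPM at P0. The lowest and the highest values were both P0 libraries. Its log2 change was 0.83 (SE 0.79, limma adjusted p = 0.403). The scaled change was 2.09 (SE 0.91, limma adjusted p = 0.139). The authors' deposited table gives miR-501-3p a log2 fold change of 2.19 (standard error 0.81, adjusted p = 0.0470). It was the 1 member of 7 below 0.05 in the authors' deposited table, beside 10.4% of all its miRNAs in either direction and 5.13% as higher. Without P0 replicate 1 the change was 1.82 in TPM (SE 0.43, limma adjusted p = 0.00354). With scaling as well it was 3.26 (limma adjusted p = 0.000735).

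miR-500-3p (chrX:7237695-7237716) had 10.2, 21.9 and 8.61 TPM at E14.5 and 10.4, 3.78 and 2.70 TPM at P0. Its P0 replicate 1 value lay within the E14.5 range, and the other P0 values were the lowest. The log2 change was −1.21 (SE 0.64, limma adjusted p = 0.147), near the −1.20 of the median miRNA. The scaled change was −0.10 (limma adjusted p = 0.914). With upper-quartile scaling its change was 0.01, so no direction can be given for it.

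By reads, miR-501-3p was 71.0% of the seed pair in E14.5 replicate 1 (95% Wilson interval 61.1 to 79.2), 72.3% in replicate 2 (70.2 to 74.2) and 80.9% in replicate 3 (75.3 to 85.4). In P0 replicate 1 it was 61.0% (57.8 to 64.1), and in P0 replicates 2 and 3 it was 97.4% (96.8 to 97.9) and 98.0% (97.4 to 98.4). P0 replicates 2 and 3 thus lay above every E14.5 library. The value of P0 replicate 1 was below every E14.5 value, but its interval overlapped that of E14.5 replicate 1, which had 93 reads of the pair. These intervals, too, cover counting error only. The log2 ratio of miR-501-3p to miR-500-3p averaged 1.50 ± 0.40 at E14.5 and 3.54 ± 2.55 at P0 (mean ± SD of 3 libraries each). The difference was 2.04 (exact permutation test, two-sided, p = 0.4). It was 3.51 without P0 replicate 1, 1.37 without P0 replicate 2 and 1.24 without P0 replicate 3.

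**Figure D2:**
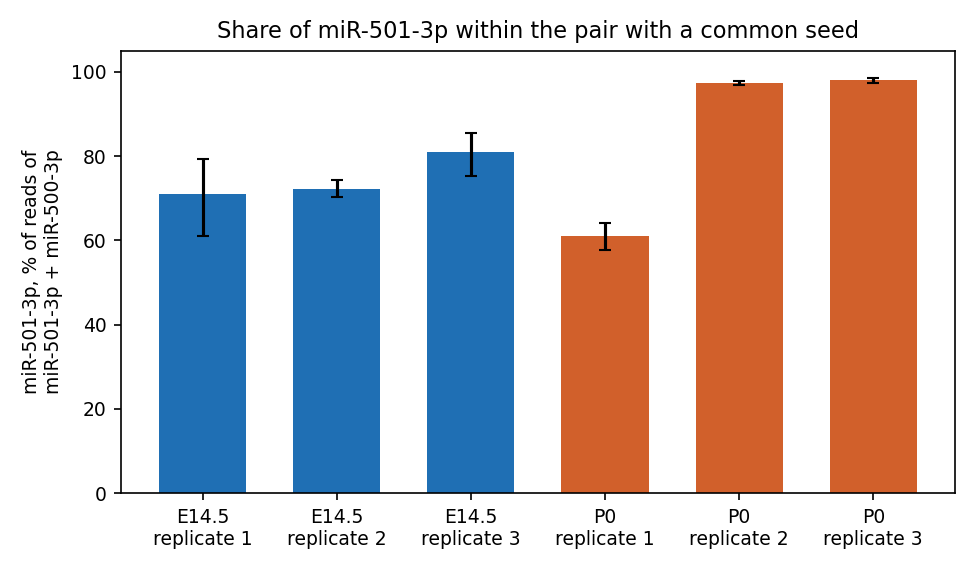
Reads of miR-501-3p as a percentage of the reads of miR-501-3p and miR-500-3p together, on the vertical axis, in each library, with 95% Wilson intervals as bars. The E14.5 libraries lie between 71.0% and 80.9%, P0 replicate 1 at 61.0%, and P0 replicates 2 and 3 at 97.4% and 98.0%.

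Without P0 replicate 1, the calls in TPM were 5 of 7 members, of which 4 fell (miR-188-5p, miR-362-5p, miR-362-3p and miR-500-3p) and 1 rose (miR-501-3p). In that fit 61.2% of all tested miRNAs were called, 53.4% as lower and 7.76% as higher, so the members' share is read against a high rate. Their log2 changes were −3.66, −2.79, −2.72, −1.68 and 1.82, beside a median of −1.42 for all. With scaling and without P0 replicate 1, 4 of 7 were called, beside 48.8% of all (27.2% lower and 21.6% higher). miR-188-5p and miR-362-5p fell, at −2.48 and −1.52, while miR-532-3p and miR-501-3p rose. In these fits the lone pair of P0 libraries stands for the stage.

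**Figure D3:**
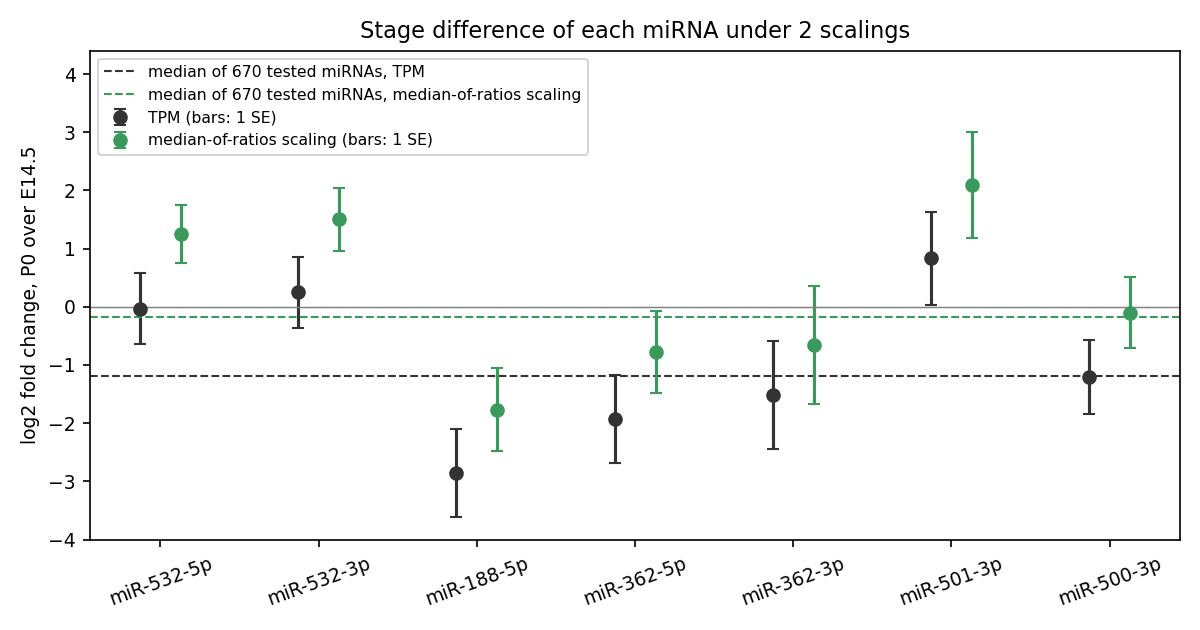
Log2 fold change of P0 over E14.5 for each member in transcript order, on the vertical axis, in TPM (dark) and after median-of-ratios scaling (green), with 1 SE as bars and dashed lines at the median of all tested miRNAs. The scaled points sit above the TPM points for every member, and miR-188-5p has the lowest change under both scalings.

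Ratios between members were taken within each library, as differences of log2(TPM + 1). The added 1 makes ratios of low members depend on the scaling and the pseudocount. Over 21 pairs of members, the stages did not overlap in 7, which is 33.3% of pairs, beside 33.4% of all pairs of tested miRNAs. Without P0 replicate 1 the stages did not overlap in 17 of the 21 pairs, beside 64.4% of all pairs, and without E14.5 replicate 2 in 11, beside 48.0%. With all libraries, the 7 pairs all set an arm of Mir532 against another member. Their number is near the rate over all pairs, and pairs that share an arm are not independent. For miR-532-5p over miR-362-3p the separation was narrow, between 5.07 in E14.5 replicate 3 and 5.11 in P0 replicate 1. The log2 ratio of miR-532-5p to miR-362-5p was 3.48, 3.35 and 3.67 at E14.5 and 4.85, 5.67 and 5.68 at P0. It was higher in every P0 library, by 1.90 in the mean. That of miR-532-5p to miR-188-5p was 2.52, 4.90 and 2.55 at E14.5 and 5.72, 6.28 and 6.44 at P0, a difference of 2.82. This difference was 3.61 without E14.5 replicate 2 and 2.42 without E14.5 replicate 1. Against miR-500-3p, miR-532-5p had 4.61, 4.48 and 4.95 at E14.5 and 6.07, 5.55 and 5.93 at P0, a difference of 1.17. For each of the 7 pairs p was 0.1 in an exact permutation test (two-sided), the smallest that 3 libraries against 3 allow, and 0.3 after adjustment over the 21 pairs. No pair could therefore pass 0.05.

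The ratio of the Mir532 arms moved little. miR-532-5p over miR-532-3p had log2 ratios of 3.63, 3.04 and 2.46 at E14.5 and 3.39, 2.30 and 2.58 at P0, a difference of −0.28 (exact permutation p = 0.6). Leaving out E14.5 replicate 1 turned it to 0.01. The 5p arm was the higher arm of this hairpin in all 6 libraries.

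**Figure D4:**
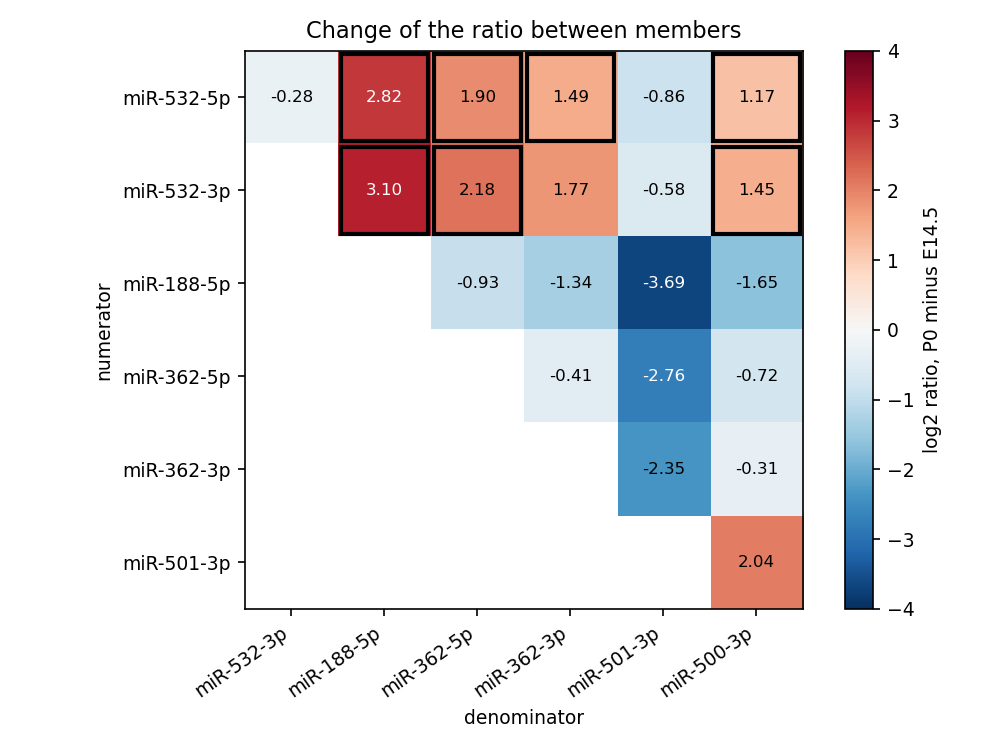
Change of the log2 ratio of the row miRNA to the column miRNA, P0 minus E14.5, in colour and as a number, with black frames where the 3 P0 ratios and the 3 E14.5 ratios did not overlap. The 7 frames are all in the rows of miR-532-5p and miR-532-3p, with differences from 1.17 to 3.10. Their share of the 21 pairs is near the 33.4% of all pairs of tested miRNAs.

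Arm ratios were compared for the 5 hairpins with both arms in the table. Mir532, Mir188 and Mir362 had more of the 5p arm at both stages, with mean log2 ratios of 5p over 3p of 3.04, 2.25 and 1.34 at E14.5 and 2.76, 1.55 and 0.93 at P0. At P0 miR-188-3p was at 0 in replicates 2 and 3 and miR-362-3p in replicate 3, so those ratios rest on the added 1. With a pseudocount of 0.1 the stage difference turned to 0.97 for Mir188 and to 0.55 for Mir362. Mir501 and Mir500 had more of the 3p arm at both stages. The cluster therefore holds hairpins with opposite arm preferences, those of the seed pair on the 3p side.

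The stages did not overlap for 1 of the 5 hairpins, Mir501, beside 31.4% of all hairpins with both arms tested. Leaving out E14.5 replicate 1, E14.5 replicate 3, P0 replicate 1 or P0 replicate 3 gave 2 of the 5, beside 37.2%, 38.6%, 64.7% and 36.2% of all hairpins. Its log2 ratio of 5p over 3p was −2.13, −2.04 and −1.60 at E14.5 and −2.47, −6.32 and −5.16 at P0, a difference of −2.73 (exact permutation p = 0.1, two-sided, adjusted p = 0.5 over the 5 hairpins). It was −3.82 without P0 replicate 1 and −1.89 without P0 replicate 2. Its 5p arm, miR-501-5p, had 4.92, 13.1 and 11.4 TPM at E14.5 and 2.10, 0.765 and 2.65 TPM at P0. That arm fell by 1.90 on the log2 scale (SE 0.59, limma adjusted p = 0.0286), with −0.92 as the scaled change (limma adjusted p = 0.286). The arms of Mir501 thus had changes of opposite sign in TPM, of which that of the 5p arm passed the test. miR-500-5p had at most 1.74 TPM in any library and was not tested. Of the 5 non-member arms listed, miR-660-5p and miR-660-3p were not analysed here, and both of the tested arms, miR-188-3p and miR-501-5p, were called lower in TPM, beside 32.8% of all miRNAs. Neither call was firm. The log2 change of miR-188-3p was −4.46 with limma-voom (adjusted p = 0.115), −4.20 with a pseudocount of 0.1 (limma adjusted p = 0.0524) and −2.15 with summed rows (limma adjusted p = 0.0501), so its call was lost while the change was as large or larger. Its call was also lost without E14.5 replicate 1 or 3 or P0 replicate 2 or 3 (0.117 to 0.166). That of miR-501-5p was lost in limma with no filter (adjusted p = 0.0572) and without E14.5 replicate 2 or 3 or P0 replicate 2 (0.0948 to 0.124).

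The miRNAs whose profile over the 6 libraries was most like that of miR-532-5p were sought among 427 others with a mean of at least 10 TPM. Likeness was the root-mean-square difference of log2(TPM + 1) after centring each profile on its mean, and its median over the 427 was 1.12. The nearest were miR-361-3p (0.116), also on chromosome X, miR-191-5p (0.135), miR-146b-5p (0.200), miR-10a-3p (0.202) and miR-25-3p (0.205). miR-361-3p had 54.0, 91.3 and 58.1 TPM at E14.5 and 147, 51.5 and 47.4 TPM at P0. Like miR-532-5p, it was highest in P0 replicate 1 and lowest in the other P0 libraries. Within the cluster, miR-532-3p was at 0.491 and miR-500-3p at 0.623, while miR-188-5p and miR-501-3p were at 1.63 and 1.64. Hairpin neighbourhood was thus not the order of likeness, since Mir188 is the hairpin nearest to Mir532.

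The other miRNAs of chromosome X give a wider setting. Of 83 outside the cluster, 63 were tested, 30 were called lower and 1 higher in TPM, and their median log2 change was −1.66 beside −1.20 for all tested miRNAs, of which 32.8% were called lower and 1.34% higher. The 3 most abundant were let-7f-5p, miR-322-5p and miR-19b-3p, of which let-7f-5p and miR-19b-3p have a second genomic copy. The place of that copy was not examined here, so their values may not stem from chromosome X alone. let-7f-5p had a change of 0.52 (limma adjusted p = 0.302), which was 1.80 after scaling (limma adjusted p = 0.0311). miR-322-5p fell by 1.72 in TPM (limma adjusted p = 0.0450) and miR-19b-3p by 2.98 (limma adjusted p = 0.0391). After scaling these were −0.44 (limma adjusted p = 0.573) and −1.70 (limma adjusted p = 0.226). After scaling 5 X-linked miRNAs were called higher and 5 lower, beside 5.67% and 5.22% of all. Without P0 replicate 1 the scaled counts were 10 higher and 27 lower, beside 21.6% and 27.2% of all, and those in TPM 2 higher and 36 lower, beside 7.76% and 53.4%. With all libraries and scaling, by sign, 45 of the 63 were lower and 18 higher, with a median of −0.72 beside −0.17 for all.

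Markers of other cell types were measured in the same libraries, and their calls in TPM are read beside the 32.8% of all miRNAs called lower. The 2 endothelial markers summed to between 26608 and 44921 TPM at E14.5 and between 5634 and 8158 TPM at P0, and both were called lower. For 6 stromal and smooth muscle markers the sums were 123806 to 147714 TPM at E14.5 and 56810 to 73280 TPM at P0, with 3 called lower and a median log2 change of −1.23 beside −1.20 for all. After scaling 0 of these 6 were called, 1 had an unadjusted p under 0.05, 4 were higher by sign and the median was 0.06. The 9 markers of tubule epithelium, of which 8 were tested, had 6 called lower, and miR-215-5p was at 0 in E14.5 replicate 1. The 4 erythroid markers summed to 242 to 417 TPM at E14.5 and 127 to 189 TPM at P0, with 1 called lower, and the 4 leukocyte markers to 632 to 1202 and 454 to 629 TPM, with 0 called in limma, 1 at an unadjusted p under 0.05, and 1 called higher after median-of-ratios scaling. After scaling 1 endothelial, 3 tubule and 0 erythroid markers were called lower, the last with 2 at an unadjusted p under 0.05, beside 5.22% of all miRNAs called lower and 5.67% higher. Without P0 replicate 1, where 53.4% of all miRNAs were called lower and 7.76% higher in TPM, the calls were 2 endothelial, 6 stromal, 8 tubule and 2 leukocyte markers lower, and 2 erythroid markers lower and 1 higher. With scaling as well they were 1 endothelial and 4 tubule markers lower, 1 leukocyte marker higher, and 2 lower and 1 higher in each of the stromal and erythroid lists, beside 27.2% lower and 21.6% higher of all. The part of these cells in the members' values was not tested, and in bulk samples fewer cells of a type and less RNA per cell cannot be told apart.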

How the data were processed

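The authors deposited 1 table that gives each mature miRNA a TPM value in every library. Per the file headers it also holds a normalised mean (signal), the authors' log2 fold change and its error, a statistic (score) and the raw and adjusted p-value of their comparison. The submitters' processing notes name mm10, featureCounts and DESeq2 1.26.0, with no role. Per the labels' protocols, the QIAseq miRNA kit gave single-end libraries. Each TPM value times its end minus start position was a whole multiple of 1 step per library in 100% of values (within 0.01 reads), which gave the reads. Where a miRNA had several genomic rows, the row with most reads was used. The main test was a limma fit (version 3.58.1 in R 4.3.3, variance trend) of log2(TPM + 1) with stage as its only term. It took the 670 miRNAs averaging 1 TPM or more, with Benjamini-Hochberg adjustment and a threshold of 0.05, and was tested on simulated data. Fold changes of low miRNAs are understated on this scale. Ratios used exact permutation tests. A floor of 3 reads at a length step of 21 was 0.0863 to 1.14 TPM. All 7 members, the other arms of their hairpins and their seed mates are named, with the 5 miRNAs nearest in profile and the 3 most abundant of chromosome X. Members, lists and tests were chosen with earlier results of these data known. P-values measure the spread between litter pools.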

Additional observations from a re-analysis of the deposited data

How the results depend on the processing

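With median-of-ratios scaling 0 of 7 members and 73 of 670 miRNAs were called in limma, with upper-quartile scaling 0 and 63, against 1 and 229 in TPM. The unadjusted p was under 0.05 for 4 members under either scaling, beside 228 and 219 of all 670 miRNAs. The log2 change of miR-532-5p turned to 1.25 and 1.38, and that of miR-500-3p to 0.011 with upper-quartile scaling. Leaving out 1 library in TPM gave 0 to 5 members and 66 to 410 miRNAs called, both highest without P0 replicate 1. Median-of-ratios fits gave 0 to 4 members and 0, 3, 10 or 327 miRNAs. Without 1 library, pairs without overlap numbered 7 to 17 and hairpins 1 to 2, and with a pseudocount of 0.1 they numbered 6 and 1. The cause was not tested. In TPM without 1 library miR-532-5p ran from −0.62 to 0.26 and miR-532-3p from −0.21 to 0.53. With scaling and without 1 library, miR-532-5p had 1.08, 1.59, 1.04, 0.83, 1.47 and 1.47 in the order of E14.5 and P0 replicates. miR-500-3p then had 0.32 without E14.5 replicate 2 and 0.20 without P0 replicate 3, and miR-362-3p 0.55 without P0 replicate 3. Ratios without 1 library ran from −0.60 to 0.013 for miR-532-5p over miR-532-3p, −1.85 to 0.088 for miR-532-3p over miR-501-3p and −1.04 to 0.39 for miR-362-3p over miR-500-3p. A pseudocount of 0.1 turned the log2 ratio of the Mir362 arms to 0.55, of the Mir188 arms to 0.97 and of the Mir500 arms to −0.11. With the replicate block 1 member and 247 miRNAs were called, and with the replicate block and median-of-ratios scaling 0 and 67, with miR-532-5p at 1.25. Same-numbered libraries had a lowest correlation of deviations of 0.042, and 5 of 6 libraries correlated best with their own number. The labels number replicates within each stage and name no pairs, so the main fit does not pair them. Limma-voom, summed rows, the pseudocount of 0.1, and a minimum of 10 TPM or none kept the call of miR-188-5p. Low reads in the smallest E14.5 library limit the lesser arms.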
